A study of Homo sapiens with 8 samples.

Results

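Tight junctions seal the space between neighbouring epithelial cells. Claudins, which span the membrane 4 times, form the strands of the junction and set which ions pass. Occludin and junctional adhesion molecules are further transmembrane parts, and the zonula occludens proteins and cingulin tie the strands to actin on the cytoplasmic side. Several claudins, CLDN4 among them, are abundant in pancreatic ductal adenocarcinoma. Here 9 genes of this structure were followed, chosen by symbol from a table of 58870 genes: the claudins CLDN1, CLDN3, CLDN4 and CLDN7, occludin (OCLN), the junctional adhesion molecule A gene (F11R), and the plaque genes TJP1, TJP3 and CGN. They were chosen with earlier results of these data known. All 9 were in the table and all 9 passed the filter on low counts, together with 13860 genes in all.

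The cells were Panc 10.05, an established line from a human pancreatic ductal adenocarcinoma. Both groups were this line: 4 control libraries, and 4 libraries of cells with an ELAPOR1 transgene (endosome-lysosome associated apoptosis and autophagy regulator 1). The series asks whether ELAPOR1 moves the cells towards the classical/progenitor subtype, an epithelial state, so the junction genes are a readout beside it. The labels do not say what the control cells carried, how the transgene was driven, whether the cells were 1 clone, or whether replicates were separate cultures, so p-values measure the spread between these libraries, which may be technical.

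The libraries held 13765509 to 18128757 counts. ELAPOR1 had 1 to 4 counts per control library and 5910 to 7368 per transgene library, so each matched its label. Of the ductal epithelial markers (KRT7, KRT8, KRT18, KRT19, EPCAM, CDH1, SOX9 and MUC1) 8 of 8 were measured, with a summed level of 12073 to 13341 CPM, the counts scaled to a fixed library size, in control and 11322 to 11659 CPM in ELAPOR1 libraries. Of the 8, KRT7, KRT19, SOX9 and CDH1 were called higher and KRT8, KRT18 and MUC1 lower, with a median log2 fold change of 0.043; KRT8 and KRT18 made up most of the sum. Acinar and endocrine markers summed to at most 0.0599 CPM in control and 0.246 CPM in ELAPOR1 libraries. The fibroblast markers DCN, LUM and COL1A2 and the leukocyte marker CD3E were at 0 counts in every library. Other markers of these cells had counts: COL1A1 had 46 to 77 in control and 41 to 51 in ELAPOR1 libraries, and CD68, a lysosomal protein of macrophages, was at 84.4 ± 2.49 and 75.7 ± 2.61 CPM (SD, n = 4 each; called lower, edgeR adjusted p = 2.1e-03). Fibroblast markers summed to 2.95 to 4.38 CPM in control and 2.77 to 3.19 CPM in ELAPOR1 libraries, and leukocyte markers to 82.0 to 88.5 and 73.3 to 79.2 CPM. Endothelial markers summed to 1.62 to 2.13 CPM in control and 0.576 to 0.998 CPM in ELAPOR1 libraries, with CDH5 and CLDN5 at 0 counts throughout. VWF, the 1 endothelial marker tested, had 27 to 32 counts in control and 8 to 15 in ELAPOR1 libraries. It was called lower (log2 fold change -1.14, edgeR adjusted p = 1.9e-03). The part of all these markers in the results was not tested.

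Of the 9 tight junction genes, 7 were lower in ELAPOR1 libraries, 1 was higher (TJP1), and 1 (CGN) did not pass the threshold, an adjusted p-value under 0.05 in edgeR's quasi-likelihood test. Over all tested genes, 44.7% were called, with 22.1% lower and 22.6% higher. The falls were of 2 sizes. TJP3, CLDN3, CLDN1, CLDN7 and CLDN4 fell by 0.85, 0.73, 0.67, 0.50 and 0.40 on the log2 scale, and F11R and OCLN fell by 0.14 and 0.13. The median log2 fold change of the 9 genes was -0.40, against 0.000875 over all tested genes. Since the set was chosen with earlier results of these data known, its counts and median beside the background are a description only. For 6 of the 9, all lower, no ELAPOR1 library reached the range of the controls in CPM; groups were apart in this way, in either direction, for 39.2% of tested genes (19.3% lower). Only TJP3 was called against a change of 1.5-fold, a test that called 1.55% of all genes (0.657% lower).

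**Figure D1:**
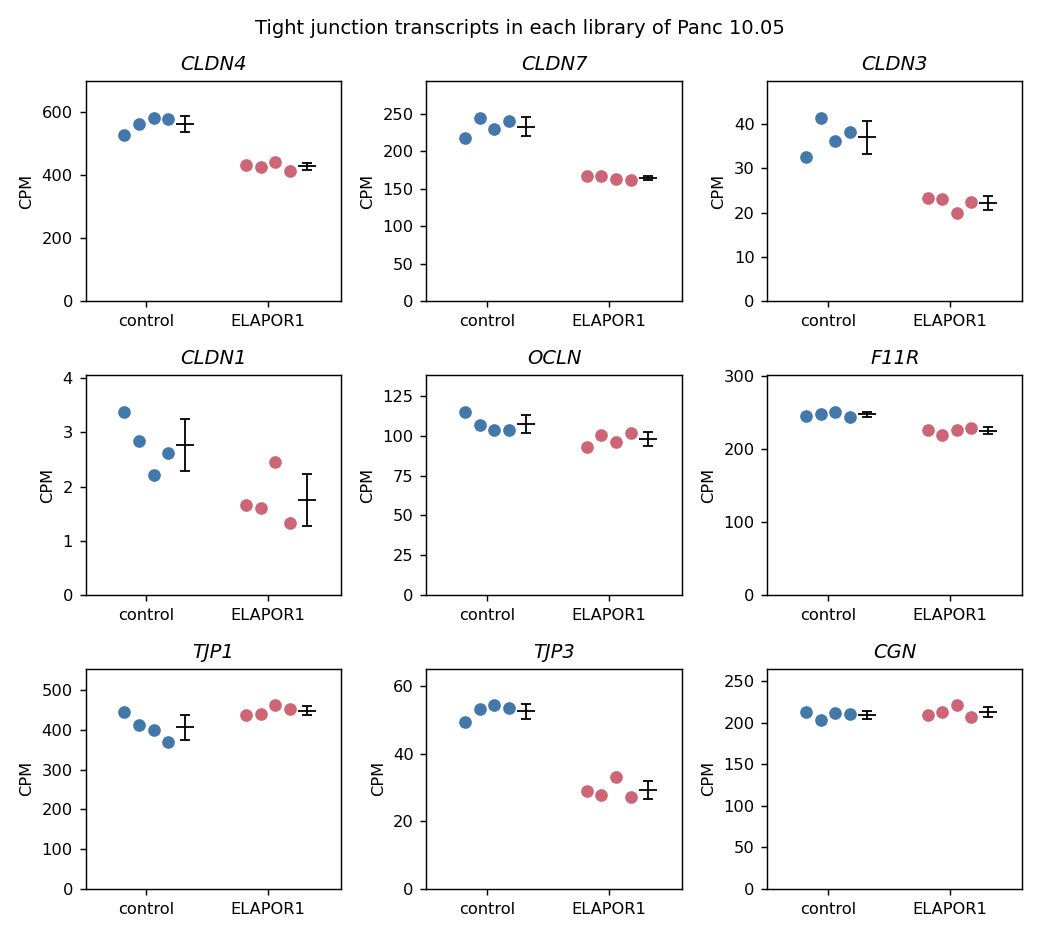
Level of each of the 9 transcripts in CPM (vertical axis, from 0) in the 4 control (blue) and 4 ELAPOR1 (red) libraries; the bar gives the mean and SD (n = 4 each). The groups are apart for CLDN4, CLDN7, CLDN3, OCLN, F11R and TJP3, and overlap for CLDN1, TJP1 and CGN.

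Levels of different genes can be compared only per length, as TPM, in which counts are divided by the length of a gene's joined exons and scaled to the same sum in every library. In control libraries the order was CLDN4 at 438 ± 15.8 TPM, CLDN7 at 343 ± 13.8, F11R at 179 ± 3.002, TJP1 at 133 ± 11.5, CGN at 116 ± 3.76, CLDN3 at 107 ± 9.61, OCLN at 58.2 ± 3.63, TJP3 at 45.7 ± 1.53 and CLDN1 at 2.77 ± 0.513 (SD, n = 4 each). The ranges of TJP1 and CGN overlapped, as did those of CGN and CLDN3; the other neighbours in the order were apart in every control library. The order rests on the length used. With the shortest principal transcript of each gene, a length chosen after seeing the data, OCLN stood at 117 ± 7.93 TPM, above TJP1 (97.5 ± 9.03) and F11R (97.5 ± 1.98), while CLDN4 and CLDN7 stayed highest at 584 ± 18.3 and 361 ± 13.3 TPM. CLDN1 was lowest under each of the 3 lengths tried.

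CLDN4, a claudin of simple epithelia and the receptor of a clostridial enterotoxin, was the most abundant of the 9 (ENSG00000189143.9, GRCh38 chromosome 7, 73799542 to 73832693, plus strand). It stood at 526, 562, 581 and 578 CPM in control replicates 1 to 4 and at 432, 424, 440 and 412 CPM in ELAPOR1 replicates 1 to 4. Every ELAPOR1 library was below every control library. The mean was 562 ± 25.3 CPM without and 427 ± 11.8 CPM with the transgene (SD, n = 4 each), which gives a log2 fold change of -0.40 (SE 0.0314, 95% interval -0.46 to -0.33, edgeR adjusted p = 1.7e-12).

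CLDN7, which forms complexes with the adhesion molecule EPCAM, followed (ENSG00000181885.18, chromosome 17, 7259903 to 7263983, minus strand). Control libraries held 217, 245, 230 and 240 CPM, and ELAPOR1 libraries 167.1, 167.0, 163 and 162 CPM. The groups were apart, and the ELAPOR1 libraries lay closer together (SD 2.62 CPM) than the controls (SD 12.1 CPM). The log2 fold change was -0.50 (SE 0.0349, interval -0.57 to -0.43, edgeR adjusted p = 8.0e-14). In the annotation its exons share 38 bases with ELP5 on the other strand and 269 with AC003688.1, a gene listed at 0 to 1.38 counts per library. EPCAM itself was at 634 ± 10.6 CPM in control and 623 ± 16.2 CPM in ELAPOR1 libraries (SD, n = 4 each; log2 fold change -0.025, edgeR adjusted p = 0.491).

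CLDN3, like CLDN4 a receptor of the enterotoxin, lies next to CLDN4 on chromosome 7 (ENSG00000165215.6, 73768997 to 73770270, minus strand). It was at 32.5, 41.4, 36.1 and 38.2 CPM in control libraries and at 23.4, 23.0, 20.01 and 22.4 CPM in ELAPOR1 libraries. The lowest control library exceeded the highest ELAPOR1 library. The log2 fold change was -0.73 (SE 0.0710, interval -0.878 to -0.590, edgeR adjusted p = 2.2e-10), or 1.66-fold lower. With GC and length trends taken out library by library it was -0.585 (edgeR adjusted p = 1.8e-11), a smaller fall that lies just outside this interval.

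CLDN1, a barrier claudin prominent in skin, was near the limit of measurement here (ENSG00000163347.6, chromosome 3, 190305701 to 190322475, minus strand). Its counts were 61, 48, 37 and 43 in control and 27, 24, 34 and 23 in ELAPOR1 libraries, or 2.76 ± 0.485 and 1.76 ± 0.482 CPM (SD, n = 4 each). ELAPOR1 replicate 3, at 2.45 CPM, was above control replicate 3, at 2.22 CPM, so the groups overlapped. The log2 fold change of -0.67 had a wide error (SE 0.232, interval -1.14 to -0.20, edgeR adjusted p = 0.0185). The call was lost without control replicate 1 (-0.56, adjusted p = 0.0726) and without ELAPOR1 replicate 4 (-0.55, adjusted p = 0.0732). It was close to the threshold in DESeq2 (-0.67, adjusted p = 0.0496). The same held in edgeR without ELAPOR1 replicate 1 (-0.65, adjusted p = 0.0444) or ELAPOR1 replicate 2 (-0.63, adjusted p = 0.0457).

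Occludin, a 4-pass protein of the MARVEL family, changed little (OCLN, ENSG00000197822.11, chromosome 5, 69492292 to 69558104, plus strand). Control libraries were at 115, 107, 103.7 and 103.8 CPM and ELAPOR1 libraries at 92.8, 101, 96.0 and 102 CPM. The groups were apart by a narrow gap. The log2 fold change was -0.13 (SE 0.0416, interval -0.22 to -0.05, edgeR adjusted p = 8.9e-03), and without ELAPOR1 replicate 1 it was -0.11 with an adjusted p of 0.0569. Reads can be shared with the partial copy OCLNP1, which was listed at 0 to 17.6 counts per library against 1333 to 2078 for OCLN.

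F11R, which encodes the immunoglobulin-like adhesion molecule JAM-A, was also slightly lower (ENSG00000158769.18, chromosome 1, 160995211 to 161021348, minus strand). It was at 246, 248, 251 and 244 CPM in control libraries and at 227, 219, 226 and 229 CPM in ELAPOR1 libraries. The groups did not overlap, though the log2 fold change was only -0.14 (SE 0.0302, interval -0.20 to -0.07, edgeR adjusted p = 3.9e-04). Of its exonic bases 36.6% are also part of the readthrough gene AL591806.3, which was listed at 0 to 68 counts per library, and 7 of the 8 F11R values were not whole numbers, as values are where reads are divided between genes.

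The 3 plaque genes went different ways. TJP3, which encodes zonula occludens protein ZO-3, changed most of all 9 (ENSG00000105289.15, chromosome 19, 3708109 to 3750813, plus strand). It was at 49.3, 53.3, 54.4 and 53.5 CPM in control libraries and at 28.9, 27.9, 33.3 and 27.3 CPM in ELAPOR1 libraries. The groups were far apart, with a log2 fold change of -0.85 (SE 0.0594, interval -0.97 to -0.72, edgeR adjusted p = 8.9e-14), or 1.80-fold lower, and 1.89% of tested genes had a log2 fold change as low or lower.

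TJP1, which encodes the related ZO-1, was higher (ENSG00000104067.16, chromosome 15, 29699367 to 29968865, minus strand). It stood at 445, 412, 401 and 370 CPM in control libraries and at 437, 441, 462 and 454 CPM in ELAPOR1 libraries. Control replicate 1 lay above 2 of the ELAPOR1 libraries, so the groups overlapped. The log2 fold change was 0.14 (SE 0.0418, interval 0.05 to 0.23, edgeR adjusted p = 0.0106), and it was 0.07 (adjusted p = 0.0211) when GC and length trends had been taken out library by library.

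CGN encodes cingulin, which binds ZO proteins and the actomyosin cortex (ENSG00000143375.15, chromosome 1, 151510510 to 151538692, plus strand). Control libraries were at 213, 203, 212 and 210 CPM and ELAPOR1 libraries at 209, 213, 221 and 207 CPM. The ranges lay almost on top of each other. The estimated change was 0.02 on the log2 scale with a 95% interval of -0.05 to 0.08 (SE 0.0319, adjusted p = 0.657 in edgeR).

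**Figure D2:**
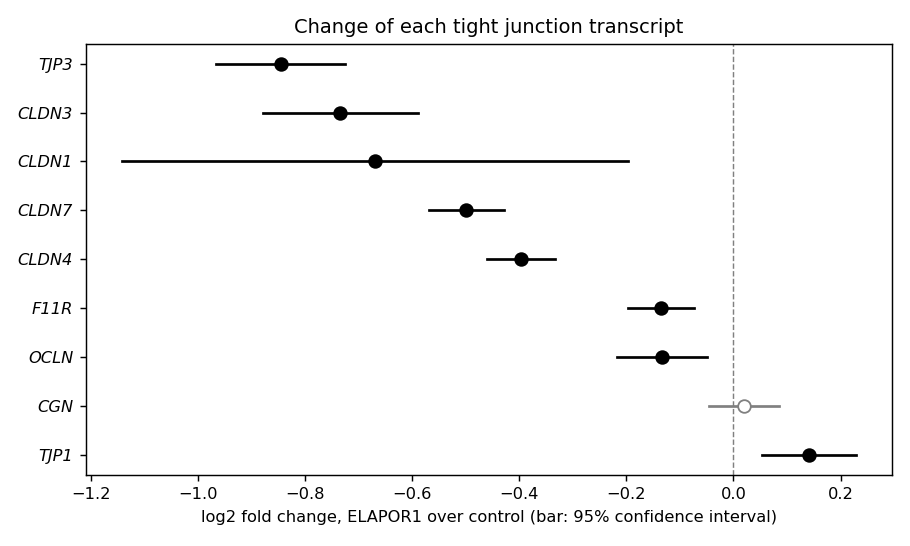
Log2 fold change of ELAPOR1 over control (horizontal axis) for each of the 9 transcripts, with its 95% confidence interval; filled points passed the threshold. The intervals of TJP3, CLDN3, CLDN1, CLDN7, CLDN4, F11R and OCLN lie below 0, that of CGN spans 0 and that of TJP1 lies above 0.

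The claudin family as a whole has 24 genes in the table. Of these 8 were measured well enough to test, 9 had no count in any library, and no untested claudin exceeded 5 counts in a library, so falls of those genes were not detectable. Untested claudins include CLDN18, a marker of gastric-type differentiation, and CLDN2, which forms a cation pore. Besides the 4 described, CLDN9, CLDN12, CLDN15 and CLDN23 were tested. CLDN9 fell by 0.82 on the log2 scale, from 12.9 ± 1.255 to 7.25 ± 0.650 CPM (SE 0.105, edgeR adjusted p = 6.1e-08). CLDN12, a claudin without the usual PDZ-binding tail, fell by 0.22, from 134 ± 2.73 to 115 ± 3.96 CPM (SE 0.0362, edgeR adjusted p = 6.1e-06; SD, n = 4 each). CLDN15 and CLDN23 were not called, with log2 fold changes of -0.15 and 0.04.

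The summed level of all claudins went from 1004 ± 34.1 TPM in control to 748 ± 9.13 TPM in ELAPOR1 libraries (SD, n = 4 each). In bulk RNA, fewer cells with a transcript and less of it per cell cannot be told apart. CLDN4 and CLDN7 made up most of the sum in both groups. CLDN4 took 43.7 ± 1.05% of it in control and 45.4 ± 0.848% in ELAPOR1 libraries, and CLDN7 34.1 ± 0.541% and 33.0 ± 0.381%, with overlapping ranges for each. The share of CLDN3 went from 10.6 ± 0.654% to 8.71 ± 0.600% and that of CLDN12 from 7.25 ± 0.405% to 8.51 ± 0.401%, and for both the groups were apart. With the shortest principal transcript as the length, CLDN3 took 5.02% and 4.07%. The overlap for CLDN7 depends on the length: its share was 32.0 to 33.6% in control and 30.6 to 31.8% in ELAPOR1 libraries with the principal transcript, and 35.4 to 36.7% and 34.1 to 35.1% with the longest, apart in both cases. These shares were not tested.

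**Figure D3:**
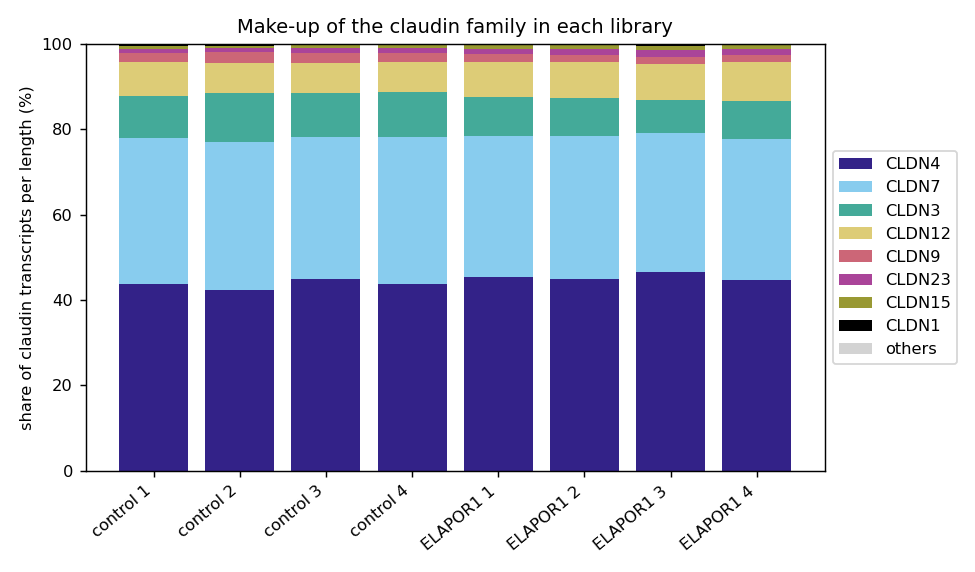
Share of each claudin in the summed TPM of the family (vertical axis, percent) in each of the 8 libraries. CLDN4 and CLDN7 fill most of every bar, and the CLDN3 band is narrower in the 4 ELAPOR1 libraries (7.82 to 9.07%) than in the 4 control libraries (9.98 to 11.5%).

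Promoter sequences were taken from RefSeq (GRCh38.p14), which gave 14 windows for 8 of the 9 genes; F11R was not matched. Each window runs from 250 bases before a transcription start to 50 after it. They were searched on both strands for 6 motifs: the E-box CANNTG, its variant CAGGTG bound by the SNAI and ZEB repressors, the AP-1 site TGANTCA, the GC box GGGCGG of SP1, the TEAD motif GGAATG, and the grainyhead motif AACNGGTT. A match describes letters only, and CAGGTG is one form of CANNTG. The form TGANTCA is a loose one of the AP-1 site, since it allows any base at the centre. The variant CAGGTG was found in 6 of the 14 windows, and in 20.6% of all 35116 windows of the table. In the 250 upstream bases alone it was in 5 of the 14, against 17.5% of all, and 1 start of CLDN7 held 4 of the 8 matches. Transcripts of SNAI1, SNAI2 and ZEB1 were higher in the same libraries (given further on), and whether they act at these sites was not tested. The following 30-base stretches show the matches of the genes with a called change, with the motif on either strand in capitals.
CLDN7, second start, chr17:7262635-7262664, minus strand: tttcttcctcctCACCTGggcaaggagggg
CLDN7, second start, chr17:7262596-7262625, minus strand: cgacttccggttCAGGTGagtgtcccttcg
CLDN7, second start, chr17:7262481-7262510, minus strand: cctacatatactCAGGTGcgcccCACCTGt
OCLN, first start, chr5:69492502-69492531, plus strand: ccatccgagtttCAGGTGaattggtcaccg
OCLN, second start, chr5:69492645-69492674, plus strand: tctaggacgcagCAGGTGggactcgcggcg
TJP3, second start, chr19:3721707-3721736, plus strand: gagacctggaggaggaagaggggCAGGTGc
TJP1, first start, chr15:29969120-29969149, minus strand: gcggccggcgcgCAGGTGgcccggcctcgc

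The matches were in genes that fell strongly (CLDN7, TJP3), that fell slightly (OCLN) and that rose (TJP1), and the upstream bases of CLDN4, CLDN1 and CLDN3 held none. CLDN3 had a match only when the 50 bases after its start were included. CLDN4 was the only one of the 8 genes with a match to the loose form TGANTCA, which was in 7.7% of all windows. It had 2, TGATTCA and TGACTCA, which differ at the centre base and are shown here in capitals.
CLDN4, chr7:73830746-73830775, plus strand: ctgggctgTGATTCAgtgtctgtctcccgg
CLDN4, chr7:73830824-73830853, plus strand: agactggatagTGACTCAgggacccggggc

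GC boxes were in 11 of the 14 windows and in 45.0% of all, with at least 1 in each of the 8 genes. No window held the TEAD motif (14.0% of all), and the grainyhead motif was in CGN alone (1.7% of all). The upstream bases of a claudin that fell, CLDN3, and of CGN, which did not pass the threshold, are set side by side with GC boxes on either strand in capitals. CLDN3 had 4 of them and CGN 5, and their GC content was 71.6% and 76.0%, against a median of 58.0% over all windows. The part of GC boxes in the change of these transcripts was not tested.
CLDN3, chr7:73770271-73770520, minus strand: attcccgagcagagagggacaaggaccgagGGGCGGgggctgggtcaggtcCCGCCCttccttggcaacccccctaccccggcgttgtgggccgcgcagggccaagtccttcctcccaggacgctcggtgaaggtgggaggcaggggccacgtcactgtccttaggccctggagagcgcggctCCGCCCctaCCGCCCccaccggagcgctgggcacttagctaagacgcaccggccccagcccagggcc
CGN, chr1:151511137-151511386, plus strand: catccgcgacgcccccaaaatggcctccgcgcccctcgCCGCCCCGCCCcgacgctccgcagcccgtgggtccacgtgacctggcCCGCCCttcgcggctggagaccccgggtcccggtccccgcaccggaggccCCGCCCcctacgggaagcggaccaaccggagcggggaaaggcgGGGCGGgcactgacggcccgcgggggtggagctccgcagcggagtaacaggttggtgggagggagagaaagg

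Around the 9 genes, 10 other lists were examined, of which 86 genes were tested. They hold junction genes, and also surface proteins, kinases and transcription factors linked to claudins. Of these 27 were lower and 17 higher, and the median change was -0.035 on the log2 scale. Both counts can be read beside the 22.1% and 22.6% of all genes called lower and higher.

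Among the other transmembrane proteins, MARVELD2 (tricellulin), MARVELD3, LSR and ILDR1, which seal the junction where 3 cells meet or belong to occludin's family, were tested and 0 of 4 were called (edgeR), with 0 of 4 also at an adjusted p under 0.05 in DESeq2 and limma-voom and 0 of 4 at an unadjusted p under 0.05. Their median was 0.067 on the log2 scale. Of the junctional adhesion molecules, 2 of 7 were measured. CXADR, the coxsackie and adenovirus receptor, fell by 0.44 on the log2 scale (17.5 ± 1.96 to 12.9 ± 1.26 CPM, SD, n = 4 each, edgeR adjusted p = 1.6e-04), and ESAM was not called.

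In the cytoplasmic plaque, 5 of 17 tested genes were lower and 3 higher (median 0.049). CGNL1 (paracingulin, a relative of CGN) fell by 0.55 between 5.44 ± 0.711 CPM in control and 3.69 ± 0.626 CPM in ELAPOR1 libraries (edgeR adjusted p = 4.3e-03). YBX3 encodes ZONAB, a transcription factor that binds ZO-1, and fell by 0.33 (adjusted p = 7.0e-11) from 266 ± 6.51 to 211 ± 4.15 CPM. MAGI3, a scaffold with PDZ domains, rose by 0.38 (adjusted p = 1.5e-03), with means of 12.0 ± 1.97 and 15.6 ± 0.673 CPM (SD, n = 4 each).

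Of the apical polarity genes, which place the junction along the side of the cell, 6 of 15 were lower and 1 was higher (median -0.11). PARD6A, a partner of atypical protein kinase C, was the 1 higher gene (0.30, edgeR adjusted p = 0.0271), and its groups overlapped. Its call was lost in DESeq2 (adjusted p = 0.0874) and without control replicate 1 (0.21, adjusted p = 0.125), control replicate 2 (0.28, 0.0676), ELAPOR1 replicate 1 (0.27, 0.0828) or ELAPOR1 replicate 3 (0.23, 0.120). LLGL2 fell by 0.24 (adjusted p = 3.8e-06) and CRB3, an apical membrane protein of the Crumbs complex, also fell by 0.24 (adjusted p = 1.4e-03). CRB3 was at -0.14 (adjusted p = 0.0368) with the same correction for GC and length.

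Adherens junctions and desmosomes are the other adhesive junctions of epithelia. Of 11 adherens junction genes 5 were higher and 2 lower (median 0.11). JUP (plakoglobin) rose by 0.41 on the log2 scale from 189 ± 10.8 to 251 ± 3.12 CPM (edgeR adjusted p = 6.9e-12), and NECTIN1, an immunoglobulin-like adhesion molecule, rose by 0.41 from 17.7 ± 1.75 to 23.6 ± 1.42 CPM (adjusted p = 3.7e-05). NECTIN4 fell by 0.43 (adjusted p = 8.9e-06), with means of 29.4 ± 1.27 and 21.9 ± 2.34 CPM (SD, n = 4 each). Outside the naming rule and named after their values were seen, CDH1 (E-cadherin) was at 0.11 (adjusted p = 2.9e-03) and CTNNB1 at 0.28 (adjusted p = 3.8e-08). The other called genes of this list were VCL at 0.27 (adjusted p = 1.7e-08) and CTNNA1 at -0.13 (adjusted p = 1.9e-04). Of 6 desmosome genes 2 were higher and 1 lower (median 0.041), namely PKP3 at 0.18 (adjusted p = 1.3e-04), PERP at 0.16 (adjusted p = 8.4e-04) and DSC2 at -0.21 (adjusted p = 0.0166). The call of DSC2 was lost in DESeq2 (adjusted p = 0.0516) and without control replicate 3 (-0.18, adjusted p = 0.0653), ELAPOR1 replicate 1 (-0.17, 0.0811) or ELAPOR1 replicate 2 (-0.16, 0.0853).

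**Figure D4:**
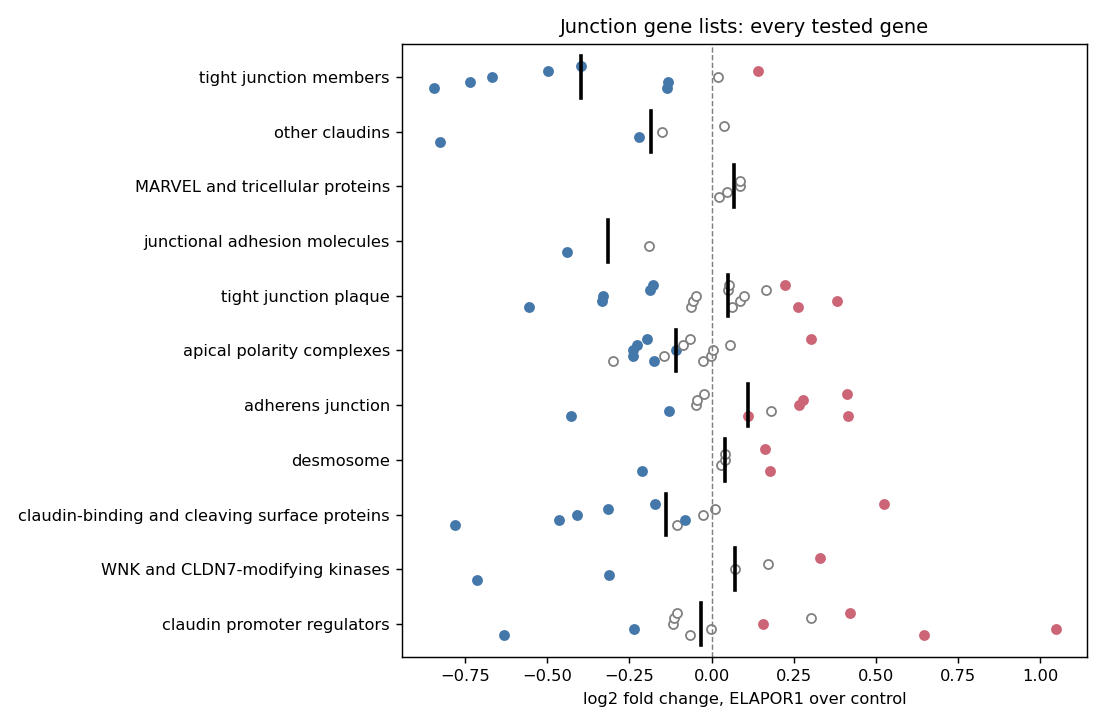
Log2 fold change (horizontal axis) of every tested gene in the 9-gene set and in the 10 other lists, of junction genes and genes linked to claudins. Blue points were called lower, red points higher and open points were not called. A bar marks the list's median and the dashed line the median of all tested genes. The 9-gene set has the lowest median (-0.40), and those of the adherens junction, MARVEL and tricellular, plaque and desmosome lists are 0.11, 0.067, 0.049 and 0.041. The set and the lists were chosen with earlier results of these data known.

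Among surface proteins linked to claudins, which include membrane proteases and inhibitors of such proteases, 6 of 10 were lower and 1 higher (median -0.14). PRSS8 (prostasin), a membrane-bound serine protease of epithelia, fell by 0.78 on the log2 scale (edgeR adjusted p = 5.1e-16). It was at 203, 210, 213 and 239 CPM in control libraries and at 126, 125, 127 and 125 CPM in ELAPOR1 libraries, which did not overlap. SPINT1, which inhibits such proteases, fell by 0.46 from 200 ± 7.93 to 145 ± 6.61 CPM (adjusted p = 1.4e-12). EFNB1, an ephrin, rose by 0.53 (adjusted p = 4.9e-03), with means of 3.63 ± 0.454 and 5.22 ± 0.222 CPM (SD, n = 4 each). Of 5 kinases that phosphorylate claudins or are linked to CLDN7, 2 were lower and 1 higher. WNK4, mutated in a familial form of hypertension, fell by 0.71 (adjusted p = 8.4e-06), EPHA2 fell by 0.31 (adjusted p = 2.4e-10), and PRKCD rose by 0.33 (adjusted p = 3.3e-03).

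Transcription factors known to act on claudin promoters were measured too, and 4 of 12 were higher and 2 lower (median -0.033). SNAI1, a repressor of epithelial genes, rose by 1.05 on the log2 scale (edgeR adjusted p = 7.8e-05). It was at 1.33, 1.71, 2.10 and 2.07 CPM in control libraries and at 4.17, 3.99, 3.38 and 3.35 CPM in ELAPOR1 libraries, low in both groups but without overlap. SNAI2 rose by 0.65, from 5.25 ± 0.204 to 8.24 ± 0.937 CPM (adjusted p = 6.2e-05). ELF3, an epithelial ETS factor, fell by 0.63 (adjusted p = 7.4e-13), with means of 86.5 ± 5.62 and 55.8 ± 2.55 CPM (SD, n = 4 each). The remaining called genes, outside the naming rule and named after their values were seen, were ZEB1 at 0.42 (adjusted p = 0.0135, groups overlapping), KLF5 at 0.16 (adjusted p = 0.0202) and SP1 at -0.24 (adjusted p = 3.9e-06). The part of these factors in the levels of the 9 genes was not tested.

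The genes whose pattern over the 8 libraries was nearest to that of TJP3, measured as the root mean square difference of log2(CPM + 1) after subtraction of the control mean, were PADI1 (0.0474), CFAP57 (0.0574) and ACSS2 (0.0696). Their log2 fold changes were -0.87 (PADI1), -1.18 (CFAP57) and -0.79 (ACSS2), given as a description with no test, since the choice by likeness to TJP3 fixed their direction. CFAP57 was at 3.28 ± 0.278 CPM in control and 1.45 ± 0.108 CPM in ELAPOR1 libraries (SD, n = 4 each), a level at which the added 1 CPM shrinks the difference.

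The 10 tested genes on each side of the 9 genes were read as well. Counts of called neighbours can be read beside the 22.1% of all tested genes called lower and the 22.6% called higher. Around CLDN7, within 0.433 Mb of chromosome 17, the 20 neighbours had a median log2 fold change of -0.32, with 11 called lower and 1 higher, and 7 were at or below the -0.50 of CLDN7. TMEM256 (-0.79), SLC16A13 (-0.65) and PLSCR3 (-0.57) were the 3 called neighbours with the lowest values, chosen after they were seen. Around TJP3, over 1.05 Mb of chromosome 19, the median was 0.035, and 0 of 20 neighbours were as low as TJP3. Around CLDN3 and CLDN4, which are next to each other in the order of tested genes, the median was -0.0077. Of 20 neighbours each, 6 were called lower, the other of these claudins among them, and 5 were called higher around CLDN3 and 4 around CLDN4. MLXIPL (-0.74) and LAT2 (-0.65) were among those called lower. The part of the surroundings in the change of CLDN7 was not tested. Large stretches of chromosomes are known to have moved in these data. The tested genes around other genes given here, such as JUP, CDH1 and PARD6A, were not read in this way. The part of the surroundings in their changes was not tested either.

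**Figure D5:**
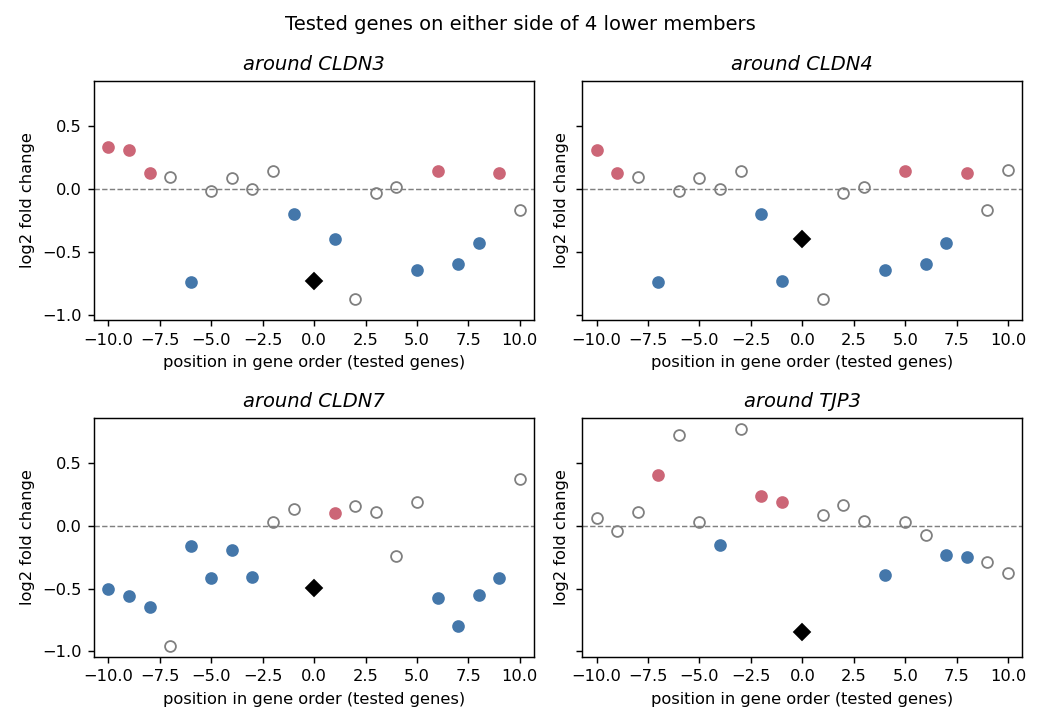
Log2 fold change (vertical axis) of the 10 tested genes on each side of CLDN3, CLDN4, CLDN7 and TJP3 (black diamonds) by their place in the gene order (horizontal axis); blue was called lower, red higher and open not called. Most neighbours of CLDN7 lie below 0, while TJP3 lies below all of its neighbours.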

How the data were processed

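RNA sequencing of 8 libraries (4 control, 4 ELAPOR1) was analysed. The authors deposited expected counts per gene, unscaled, 1 column per library; 15.0% of nonzero values were not whole. The submitters' processing notes name cutadapt, STAR, RSEM, DESeq2 and hg38, with no versions; annotation release and strand use are not given in the sources used here. Counts were rounded and tested with edgeR 4.0.16 (R 4.3.3): filterByExpr, TMM, robust quasi-likelihood test, two-sided, no covariate, Benjamini-Hochberg over 13860 genes. CPM are per 1e6 after TMM; SE is the log2 fold change over the square root of F. The common coefficient of variation was 0.0401. TPM used joined exons of GENCODE 29 (GRCh38). The 9 genes and all lists were chosen with earlier results of these data known. Named genes are the 9, ELAPOR1, up to 3 called genes per list (mean of at least 1 CPM, largest change first), and the 3 most like TJP3. Replicates differed by more than sampling noise (chi-square per degree of freedom 1.94 to 6.12). No block was used, since the labels do not say that replicate numbers mark a shared batch. Same-numbered libraries did not deviate together. Alternatives used DESeq2 1.42.0 and limma 3.58.1; the test was checked on simulated counts. Motifs were searched in whole windows; only upstream bases are printed, and at most 30 where they lie in exons. Plots used matplotlib 3.10.9. Some items are not reported here.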

Additional observations from a re-analysis of the deposited data

Results flagged for a closer look

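By Dixon's test of the gap against the range, 1 library stood off from the 3 others in 7 of 74 groups of 4 libraries examined (the CPM of the 9 genes and of the other named genes). Chance gives about 1 in 20, or 3.7 groups. None of the 7 was among the 18 groups of the 9 genes. NECTIN4 was at 18.4 CPM in ELAPOR1 replicate 1, and 22.8 to 23.2 in the others. CLDN12 was at 120.6 CPM in ELAPOR1 replicate 4, and 112 to 113 in the others. ACSS2 was at 79.2 CPM in ELAPOR1 replicate 3, and 70.5 to 71.4 in the others. PKP3 was at 167 CPM in ELAPOR1 replicate 3, and 172 in each of the others. WNK4 was at 5.79 CPM in ELAPOR1 replicate 2, and 5.40 to 5.46 in the others. PERP was at 89.9 CPM in control replicate 3, and 84.6 to 85.1 in the others. PADI1 was at 72.1 CPM in control replicate 1, and 77.4 to 78.5 in the others.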

How the results depend on the processing

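Under the 3 other scalings, DESeq2, limma-voom, both filters, the table without ELAPOR1, the replicate block and the removal of GC and length trends, 7 of the 9 genes were called lower and 1 higher, as reported. The sizes moved when GC and length trends were removed. The falls were smaller for CLDN3 (-0.585), CLDN7 (-0.43) and TJP3 (-0.81). They were larger for CLDN1 (-0.70), CLDN4 (-0.41), OCLN (-0.19) and F11R (-0.19). The replicate block called 5926 genes and 8 of the 9. Same-numbered libraries had deviations correlated at -0.121 to 0.0313, and 2 of 8 libraries correlated best with their own number. With 4 libraries per group these values cannot show whether same-numbered libraries were handled together, and the labels do not say. CGN, never called, changed sign to -0.019 with GC and length trends removed; the cause was not tested. At an adjusted p under 0.01, TJP1 (0.14) and CLDN1 (-0.67) lost their calls, which left 0 of the 9 called higher. The test against a 1.5-fold change called 215 genes in all, 1 of the other junction genes, and of the 9 only 1, lower (TJP3), and 0 higher. The genes it no longer called, because it asks for a larger change, were CLDN1 (-0.67), CLDN3 (-0.73), CLDN4 (-0.40), CLDN7 (-0.50), OCLN (-0.13), F11R (-0.14) and TJP1 (0.14). Leaving out each library in turn gave -0.86 to -0.55 for CLDN1 and -0.15 to -0.10 for OCLN. Of 558 values of the other 28 named genes, 523 kept their direction and side of the threshold, 35 lost the call (9 of them outside the 1.5-fold and 0.01 settings, all in DSC2 and PARD6A) and 0 reversed. CLDN1, at 23 to 61 counts per library, has the widest interval of the 9; of the 16 untested claudins 9 had 0 counts throughout and none exceeded 5, and low depth and absence cannot be told apart there.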

Other observations

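Around the remaining members of the set, the 20 neighbouring tested genes had a median log2 fold change of -0.060 for CLDN1, 0.015 for OCLN, 0.073 for TJP1, -0.023 for CGN and -0.017 for F11R. None of the 20 neighbours of CLDN1, over 8.49 Mb, was as low as CLDN1. At or below the value of the gene itself were 6 of 20 neighbours of OCLN and 7 of 20 of F11R.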
